A study of Mus musculus with 2 samples.

Results

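The cells described here are dermal fibroblasts with Twist2, taken from single-cell RNA sequencing of tdT+ cells sorted from the trunks and limbs of E14 mouse embryos. They were chosen by their own RNA counts: at least 1 UMI (unique molecular identifier, 1 counted RNA molecule) of Twist2, at least 3 UMIs of Crabp1 and Apcdd1 together, at least 5 of Col3a1, fewer than 10 of the keratinocyte genes Krt5, Krt14 and Krt15 together, fewer than 5 of the tendon genes Tnmd and Scx together and fewer than 5 of the fascia genes Dpt, Clec3b and Cd55 together. Of 27766 barcodes, 22086 cells passed the filters of at least 1000 UMIs and at most 10% mitochondrial UMIs, and 1700 of these met the rule. These genes are therefore high or low in the members by construction, and their levels are given as a description of what was selected.

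One library was made from SRSF2f/f/Myf5-Cre/tdT embryos (MKO/tdT), in which both alleles of Srsf2 were flanked by loxP sites, and 1 from SRSF2f/w/Myf5-Cre/tdT embryos (Het/tdT), with 1 such allele and 1 wild-type allele. Both groups carried Cre under the Myf5 promoter, which removes the flanked allele in cells with a history of Myf5 activity, and the tdT reporter switched on by the same Cre. All cells came through the tdT gate, so the data hold fibroblasts with a Myf5 history and not the dermis as a whole. The embryos had been decapitated and eviscerated, and the number of embryos in a library was not given in the sources used here.

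The labels of the libraries are in conflict. The deposited title of 1 sample is SRSF2f/f, but its run summary is named as wild type, and the other sample, titled SRSF2f/w, has a run summary named as the knockout. The libraries are called labelled f/f and labelled f/w after their titles, and every direction between them depends on those titles. The other sources are divided: the order of the genotypes by number of retained cells in the study and a colour key in its supplement go with the titles, and the heading over its quality metrics goes against them. Cells of the muscle program, with UMIs in at least 2 of Pax7, Myf5, Myod1 and Myog and outside the fibroblast gate described below, numbered 1410 in the library labelled f/f and 93 in the library labelled f/w. Since the mutant is described as the genotype that lacks muscle, these numbers go against the titles, and so do the levels of Srsf2. Srsf2 (chr11:116849901-116853094, minus strand, GRCm38), the splicing factor that Cre was meant to remove, had 3247 UMIs in the members of the library labelled f/f, a level of 251 CPM (UMIs of the gene per 1000000 UMIs in those cells, with a 95% Poisson interval of 243 to 260). It had 1693 UMIs in the library labelled f/w, or 168 CPM (160 to 176). The log2 ratio of labelled f/w over labelled f/f was -0.58 (-0.67 to -0.50), so the targeted gene was lower in the library whose title keeps a wild-type allele. The study's scheme draws Srsf2 as a whole between the loxP sites, with no exons or positions, and 3′ counts outside the removed part would not report its loss. In all other kept cells the same ratio was -0.51.

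The library labelled f/f held 1057 members among 12144 kept cells, and the library labelled f/w 643 among 9942. That is 8.70% (8.21% to 9.22%, exact Clopper-Pearson interval) and 6.47% (5.99% to 6.97%) of the kept cells. The log2 ratio of the shares was -0.43 (-0.56 to -0.29), but among all 11081 cells in the fibroblast gate (at least 5 UMIs of Col3a1 and fewer than 10 of the keratinocyte genes) the shares were 15.1% and 15.8%, with a log2 ratio of 0.069 (-0.06 to 0.20). The share over all kept cells thus also moves with the number of cells of other kinds in each library. With 1 library for each genotype there was no replicate, no test between the libraries was possible, and the intervals cover counting error only. The median member held 10223 UMIs of 3192 genes in the library labelled f/f and 12622 UMIs of 3451 genes in the library labelled f/w. They summed to 12908800 and 10084425 UMIs. Of the barcode sequences, 74 occurred in both libraries, and 10 members carried such a barcode. Both libraries held transcripts of the Y-linked gene Ddx3y in their members (142 and 147 CPM) and 1 UMI each of Xist.

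Dermal fibroblasts make the collagen-rich layer under the epidermis. In the embryo, Wnt ligands from the epidermis act through beta-catenin on the mesenchyme below, and this signal is needed for dermal fate. Twist2 and its relative Twist1 are basic helix-loop-helix transcription factors of that mesenchyme and lie downstream of the signal. Crabp1 binds retinoic acid in the cytoplasm and marks the upper (papillary) dermis, Apcdd1 is a membrane inhibitor of Wnt signalling and is itself a Wnt target, and Cxcl14 is a chemokine of skin fibroblasts. The upper dermis later forms the dermal condensates of hair follicles, while deeper cells give rise to the reticular dermis, the fat layer and the fascia.

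Twist2 (chr1:91801461-91848028, plus strand) was measured at a median of 4 UMIs per member cell in both libraries, from 1 to 27 in the library labelled f/f and from 1 to 32 in the library labelled f/w. Its summed level was 397 and 304 CPM. Crabp1 (chr9:54764748-54773110, plus strand) had a median of 18 and 14 UMIs per cell, from 0 to 95 and from 0 to 131. Apcdd1 had a median of 1 UMI per cell in both, and 68.4% and 61.1% of the members held any. Cxcl14 (chr13:56288643-56296551, minus strand) was not part of the rule. It reached 266 CPM (257 to 275) in the library labelled f/f and 375 CPM (363 to 387) in the library labelled f/w, against 20.4 and 32.4 CPM in the other fibroblasts. Other fibroblasts are the 7433 cells in the gate that were neither members nor tendon-type (at least 5 UMIs of Tnmd and Scx, 800 cells) nor fascia-type (at least 5 UMIs of Dpt, Clec3b and Cd55 without the tendon genes, 1148 cells).

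A part of the Wnt genes was higher in the members than in the other fibroblasts. Of 29 ligands, receptors and modulators and 18 target and nuclear genes of the Wnt lists with at least 200 UMIs, 13 were at least 2-fold above the other fibroblasts in both libraries: Wnt4, Rspo1, Sfrp5, Wif1, Apcdd1, Kremen1, Axin2, Lef1, Nkd1, Nkd2, Sp5, Twist1 and Twist2. Of all 8373 genes compared, 2.01% were, and Apcdd1 and Twist2 were chosen by the rule. In the other direction, the receptor Fzd8 (16.1 and 14.6 CPM against 36.0 and 34.7) and the secreted Dkk3 (8.52 and 13.7 CPM against 22.6 and 28.7) were at least 2-fold lower in both libraries, as were 0.729% of all genes. Lef1 is a nuclear partner of beta-catenin, and Sp5 is a transcription factor induced by it. The letters CTTTGA, the core of the site bound by Lef1 and its relatives, were looked for on both strands of the RefSeq promoter windows of GRCm38.p6, from 250 bases before to 50 bases after each start. Of the 13 genes, 11 were in that table with 14 windows, and 2 windows held the letters, those of Lef1 and Sp5. Over all 32851 windows the share was 16.0%, so the windows of the Wnt genes were near the background. The sequences of Lef1 (chr3:131156044-131156343, plus strand) and Sp5 (chr2:70474673-70474972, plus strand) are shown because they are the ones with matches among the Wnt-responsive transcription factors of the members. The window of Lef1 lies at an internal RefSeq start within the gene (chr3:131110471-131224356), and its windows at the beginning of the gene held no match. Capitals mark the letters searched, which appear reversed and complemented in the window of Lef1.
Lef1: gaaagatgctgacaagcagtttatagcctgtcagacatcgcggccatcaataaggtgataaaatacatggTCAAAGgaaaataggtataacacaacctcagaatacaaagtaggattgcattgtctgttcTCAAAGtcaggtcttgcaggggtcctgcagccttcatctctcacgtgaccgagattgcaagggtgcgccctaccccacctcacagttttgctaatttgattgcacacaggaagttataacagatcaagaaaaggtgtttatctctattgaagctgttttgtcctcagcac
Sp5: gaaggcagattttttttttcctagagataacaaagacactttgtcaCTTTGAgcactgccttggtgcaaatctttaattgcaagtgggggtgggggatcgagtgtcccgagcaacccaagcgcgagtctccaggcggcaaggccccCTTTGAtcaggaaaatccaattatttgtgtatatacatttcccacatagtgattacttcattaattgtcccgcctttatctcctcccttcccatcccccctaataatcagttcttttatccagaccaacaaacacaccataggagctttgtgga
Each window held 2 matches. A match of 6 letters is a description of the sequence and not a bound site, and the start that the dermal cells use was not measured.

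**Figure D1:**
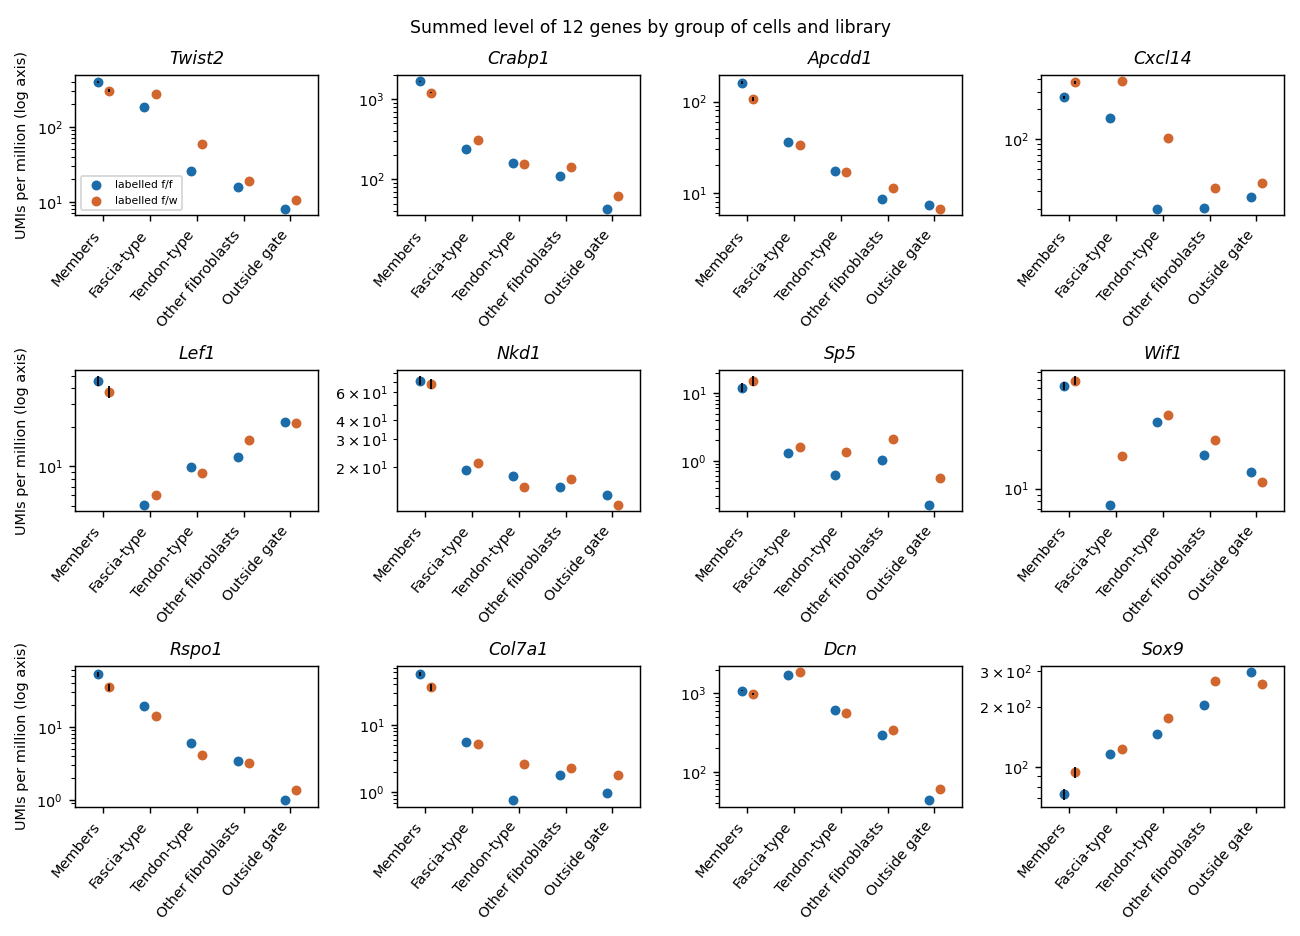
Summed level (CPM, log axes) of 12 genes in members, fascia-type, tendon-type and other fibroblasts and in kept cells outside the fibroblast gate, with 1 point for each library and exact 95% Poisson intervals on the members (vertical bars, counting error only). Nkd1, Sp5, Wif1, Lef1, Rspo1 and Col7a1 are highest in the members in both libraries, Cxcl14 is as high in fascia-type cells of the library labelled f/w (384 CPM) as in its members, and Dcn is higher in fascia-type cells than in members.

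Against the other fibroblasts, 168 of 8373 genes (2.01%) were at least 2-fold higher in the members in both libraries, and 61 (0.729%) at least 2-fold lower. These counts describe cells chosen by their RNA and no test was made on them. In the papillary list, which includes Crabp1 and Apcdd1 of the rule, 10 of 13 genes were at least 2-fold higher and none lower. Col7a1, the collagen of the anchoring fibrils that fasten the epidermis to the dermis, was at 56.6 and 35.9 CPM in the members and at 1.80 and 2.29 CPM in the other fibroblasts. Lrig1, a membrane regulator of growth factor receptors that marks upper dermis, was at 68.3 and 54.3 CPM against 19.5 and 15.7 CPM. Col23a1, a membrane collagen, was at 59.0 and 55.9 CPM against 14.6 and 22.0 CPM. These upper-dermis genes were thus high in both libraries.

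Of the Wnt ligands, Wnt4 was at 130 and 120 CPM in the members and at 26.0 and 35.6 CPM in the other fibroblasts. Wnt5a, a ligand of mostly beta-catenin-independent signalling, was at 88.7 and 73.2 CPM against 30.8 and 42.9 CPM. Wnt2 stood at 4.11 and 5.55 CPM in the members but at 41.0 and 64.0 CPM in the fascia-type cells. The ligands therefore differed between these kinds of fibroblast, with Wnt4 higher in members (fascia-type 51.7 and 34.8 CPM) and Wnt2 higher in fascia-type cells.

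Rspo1, a secreted amplifier of Wnt signalling, was at 52.8 and 35.2 CPM against 3.44 and 3.23 CPM in the other fibroblasts. The secreted inhibitors Wif1 (62.4 and 69.0 CPM against 18.3 and 23.9) and Sfrp5 (22.2 and 29.6 CPM against 4.23 and 4.62) were also higher in the members. Sfrp2, another secreted inhibitor, was lower in the members, at 68.6 and 114 CPM, than in the other fibroblasts, at 123 and 140 CPM. In the fascia-type cells Sfrp5 was at 2.91 and 5.00 CPM and Sfrp2 at 303 and 378 CPM. Against either kind of cell, Sfrp5 was thus higher and Sfrp2 lower in the members.

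Among nuclear and target genes, Lef1 was at 45.4 and 37.4 CPM in the members, at 11.9 and 15.9 CPM in the other fibroblasts and at 5.09 and 6.00 CPM in fascia-type cells. Nkd1, a cytoplasmic feedback inhibitor induced by the pathway, was at 70.9 and 67.9 CPM against 14.8 and 16.6 CPM in the other fibroblasts. Sp5 was at 12.2 and 15.2 CPM against 1.04 and 2.12 CPM, and Axin2, another feedback inhibitor, at 32.1 and 37.1 CPM against 11.2 and 14.8 CPM. The shared machinery did not share the pattern: Ctnnb1, which encodes beta-catenin, was at 222 and 185 CPM in the members and at 206 and 192 CPM in the other fibroblasts, and Gsk3b at 190 and 183 against 184 and 199 CPM. Over both Wnt lists the median log2 ratio to the other fibroblasts was 0.52 and 0.22 for ligands, receptors and modulators and 0.09 and 0.08 for targets and nuclear genes, beside 0.05 and 0.02 over all genes compared, in the libraries labelled f/f and f/w. The median of the target and nuclear list was thus near that over all genes. The median of the other list was above it in both libraries, and more so in the library labelled f/f.

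**Figure D2:**
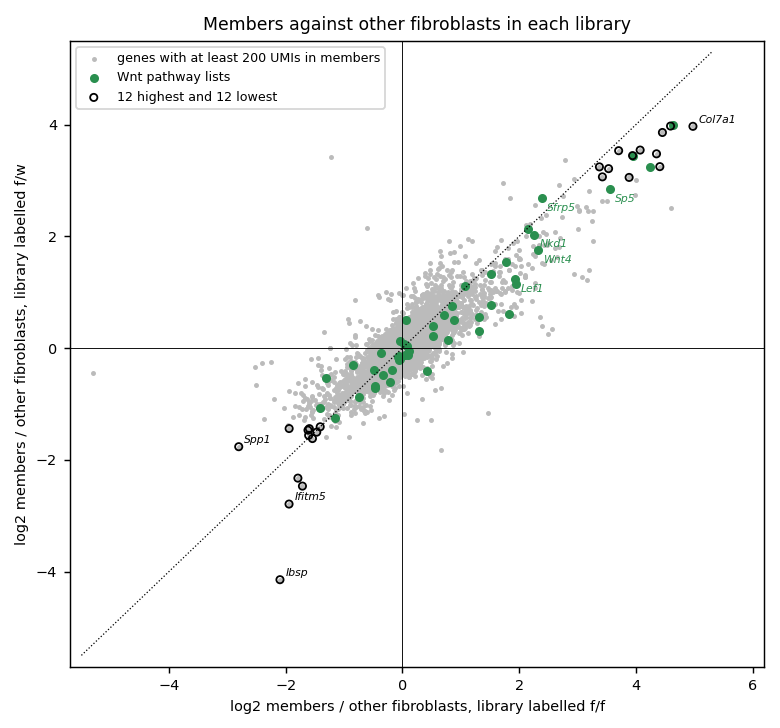
Each point is a gene with at least 200 UMIs in the members and at least 20 in the other fibroblasts of each library, at its log2 ratio of members over other fibroblasts in the library labelled f/f (horizontal) and labelled f/w (vertical), with equal ratios on the dotted line. Wnt list genes (filled green) reach into the upper right with Sp5, Nkd1, Wnt4 and Sfrp5, and the bone genes Ibsp, Ifitm5 and Spp1 lie at the lower left.

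Several other transcription factors were also higher in the members than in the other fibroblasts. Irx1 was at 75.7 and 55.4 CPM against 3.46 and 3.82 CPM, and its neighbour Irx2 at 52.1 and 42.2 CPM against 5.91 and 7.35 CPM. The fascia-type cells lay between for Irx1, with 24.9 and 43.0 CPM. Bcl11b, a zinc-finger factor of skin and lymphoid cells, was at 132 and 94.5 CPM against 8.93 and 11.4 CPM. En1, which is expressed in the ventral limb ectoderm and in dermal progenitors of the back, was at 52.1 and 47.9 CPM against 15.8 and 6.15 CPM, and Tbx15, a factor of the dorsal skin and limb mesenchyme, at 50.4 and 31.7 CPM against 10.7 and 8.94 CPM. Tbx15 was about as high in fascia-type cells, at 40.8 and 36.6 CPM. Of 19 dermal transcription factors with at least 200 UMIs, 7 were at least 2-fold higher in both libraries, among them Twist2, which was chosen by the rule. In the other direction, 1, Meox2, a homeobox factor of somite derivatives, was at least 2-fold lower, at 12.6 and 17.6 CPM against 36.8 and 38.6 CPM. Of all genes compared, 2.01% were at least 2-fold higher in both libraries and 0.729% lower.

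Genes of other signals were described in the same way. Of 10 hedgehog genes, Gas1 (521 CPM in both libraries against 252 and 216), a co-receptor, and Gli2 (21.9 and 21.8 against 10.9 and 10.8 CPM), a nuclear effector, were at least 2-fold higher in both, while Ptch1, the receptor and a target of the pathway, was at 111 and 114 CPM against 98.7 and 129 CPM. In the BMP and TGF-beta list, 3 of 25 genes were at least 2-fold higher in both and 1, the ligand Tgfb3, lower (13.0 and 15.7 CPM against 26.5 and 31.5). Grem1, a secreted BMP antagonist, was at 34.4 and 31.4 CPM against 10.5 and 13.5 CPM. In the FGF, PDGF and IGF list none of 25 was higher and 1, the binding protein Igfbp7, was lower (23.5 and 41.6 CPM against 57.8 and 94.3), and the growth factor Igf2 was at 474 and 556 CPM in the members and at 846 and 943 CPM in the other fibroblasts. The list of dermal condensate and hair follicle signals, many of which are used more widely, summed to 936 and 1124 CPM in the members and to 1004 and 1379 CPM in the other fibroblasts, and 1 of 17 genes was at least 2-fold higher in both and 1 lower. Of the condensate factors in it, Sox2 had 20 and 47 UMIs in the members (1.55 and 4.66 CPM) and Sox18, shared with endothelial cells, 1 and 15 UMIs.

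Matrix genes were abundant but mostly shared. Col1a1 was at 2383 and 2109 CPM in the members and at 2083 and 2072 CPM in the other fibroblasts, and 2 of 20 collagens, Col7a1 and Col23a1, were at least 2-fold higher in both libraries and 1, Col11a1, at least 2-fold lower (272 and 511 CPM against 933 and 1170). The small proteoglycans Dcn (1073 and 982 CPM against 293 and 345) and Lum (836 and 770 against 240 and 256) were higher in members than in the other fibroblasts, and Dcn was higher still in fascia-type cells (1729 and 1861 CPM). Of the genes lowest against the other fibroblasts, several belong to bone and cartilage, and Ptgis, Nupr1 and Pltp, which do not mark these tissues, were among the 12 lowest too. Ibsp, a matrix protein of bone, was at 414 and 68.9 CPM against 1774 and 1220 CPM, and Sox9, the factor of cartilage fate, at 73.2 and 94.3 CPM against 203 and 268 CPM. Of 11 cartilage markers, 8 were at least 2-fold lower in both libraries. The other fibroblasts are thus a mixed reference that includes skeletal cells.

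Cells on both sides of 2 limits of the rule, that of Twist2 and that of Crabp1 and Apcdd1, were described. Cells that failed only the Twist2 condition numbered 1296, and those that failed only the Crabp1 and Apcdd1 condition 997, against 405 for the fascia genes, 87 for Col3a1, 67 for the tendon genes and 7 for the keratinocyte genes. With all else met, cells with 2 joint UMIs of Crabp1 and Apcdd1 (158 cells, just outside) had 131 CPM of Twist2, 113 CPM of Cxcl14 and 18.3 CPM of Lef1, and cells with 3 (119 cells, just inside) had 121, 142 and 9.29 CPM. Cells with no Twist2 had 31.0 CPM of Cxcl14, and those with 1 UMI (372 cells) had 114 CPM and those with 2 (215 cells) 226 CPM. No step was seen for Twist2 and Cxcl14 at the joint limit of 3. Lef1 was lower just inside that limit, and with 4 joint UMIs it was at 11.2 CPM. Cxcl14 was higher at each step from 0 to 2 UMIs of Twist2.

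Members also varied in how much they resembled each other. The 20 nearest cells of each member were found among the 11081 fibroblasts with all genes of the rule left out. On average 65.7% of them were members, against 15.3% over the gate, 12.7% for neighbours of fascia-type cells and 5.39% for neighbours of the other fibroblasts. This share went with the joint UMIs of Crabp1 and Apcdd1: it was 20.2% for the 213 members with 3 or 4 UMIs, 36.1% for the 274 with 5 to 9, 65.3% for the 412 with 10 to 19 and 88.2% for the 801 with 20 or more. Members for which at least 10 of the 20 were members are called core members, and the rest edge members. This split was chosen after the values were seen, and its genes describe the split only. Core members numbered 733 (69.3%) in the library labelled f/f and 400 (62.2%) in the library labelled f/w. The limit may be met more easily in the library with more members: 80.9% and 46.8% of the member neighbours came from the same library, against 62.2% and 37.8% of the members. Edge members were deeper, with a median of 13835.5 and 15548 UMIs against 9232 and 11540.5, so that a fixed limit of UMIs is met more easily in them.

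Without the genes of the rule, the papillary list summed to 1139 and 1068 CPM in the core and to 1074 and 758 CPM at the edge, so that it differed little in the library labelled f/f. The Wnt ligand, receptor and modulator list without them summed to 1459 and 1465 against 1093 and 1200 CPM, and the Wnt target and nuclear list to 1991 and 1785 against 1233 and 1304 CPM. Single genes differed more. Col7a1 was at 90.2 and 62.2 CPM in core members and at 8.63 and 7.97 CPM in edge members, Bcl11b at 203 and 158 against 31.0 and 27.6 CPM, Wif1 at 96.8 and 110 against 13.5 and 25.6 CPM, and Sp5 at 19.7 and 26.6 against 1.50 and 3.07 CPM. Col3a1 differed less, with 3690 and 2961 against 2137 and 1728 CPM. Lef1 was at 66.4 and 52.8 CPM in the core and at 15.6 and 21.1 CPM at the edge, which is near the 11.9 and 15.9 CPM of the other fibroblasts. The markers of the label were high in the core (Twist2 at 572 and 464 CPM, Cxcl14 at 379 and 548 CPM) and lower in the edge members (148 and 134 CPM, and 104 and 190 CPM), for which the name of dermal fibroblast is therefore weaker.

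Markers of most other cell types were higher in the edge members. The endothelial list summed to 34.2 and 58.7 CPM in the core and to 151 and 774 CPM at the edge, the mast cell list to 11.0 and 41.4 against 24.4 and 681 CPM, the muscle list to 145 and 18.1 against 601 and 58.7 CPM, the bone list to 89.5 and 78.9 against 1096 and 312 CPM, and the adipocyte list to 37.2 and 45.2 against 741 and 171 CPM. Few cells held much of the bone and adipocyte RNA. Over all members, the 5 cells with the most held 88.8% and 82.4% of the UMIs of the bone gene Ibsp. For Car3 of the adipocyte list the shares were 56.0% and 75.6%, and for the muscle gene Actc1 32.2% and 38.1%. The keratinocyte list differed little (34.4 and 52.6 against 37.5 and 66.5 CPM), and the neuron list was lower at the edge in the library labelled f/f (248 and 232 CPM) and higher in the library labelled f/w (252 and 612 CPM). In the library labelled f/w the erythroid list (3207 and 2878 CPM) and the pericyte list (331 and 323 CPM) were also lower at the edge, and in the library labelled f/f both were higher there (2558 and 3915 CPM, and 194 and 408 CPM). Of all members, 56 held at least 1% of their UMIs in the markers of another cell type among those counted, 34 of them in cartilage markers, 10 in erythroid, 6 in mast cell and 4 in muscle markers. Also counted were the keratinocyte, endothelial, macrophage and lymphoid, neuron and Schwann lists. The bone, adipocyte, pericyte and melanoblast lists were not part of this count. No doublet caller was run, and 28 and 27 members had over 3 times the median UMIs of their library's members. Doublets, free RNA and true mixed states were not tested as sources of these transcripts.

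**Figure D3:**
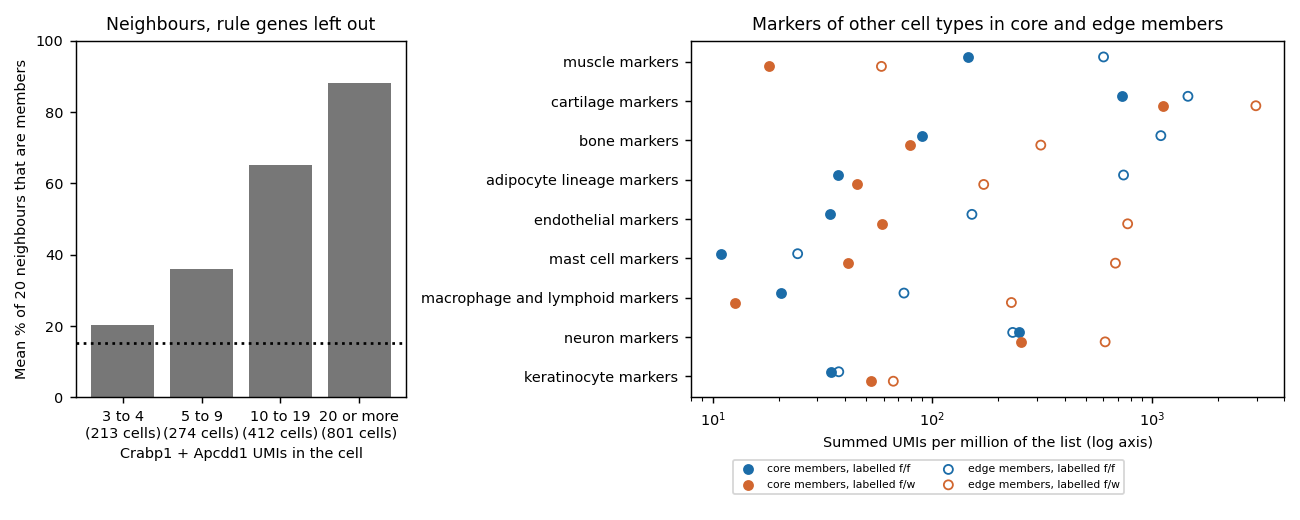
Left, mean percent of the 20 nearest fibroblasts that are members, by the joint Crabp1 and Apcdd1 UMIs of the cell, with the share over all fibroblasts (15.3%) dotted. Right, summed CPM (log axis) of the marker lists of other cell types in core (filled) and edge (open) members of each library, where edge members lie to the right of core members in both libraries for every list shown but the neuron markers, with muscle, bone and adipocyte lists highest in the edge members labelled f/f and mast and endothelial lists highest in those labelled f/w.

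Within the members, 2 further axes were described. Crabp1 made up more than 2/3 of the joint UMIs in 993 (93.9%) and 588 (91.4%) members, and Apcdd1 in 13 and 19, with 51 and 36 between. Members not dominated by Crabp1 had 144 and 147 CPM of the matrix gene Fbln1, against 257 and 237 CPM in those dominated by it. They had 115 and 269 CPM of the bone matrix gene Spp1 against 25.4 and 57.8 CPM, and 128 and 222 CPM of the cartilage proteoglycan Acan against 65.3 and 113 CPM. Over all members, the 5 cells with the most held 46.0% and 52.5% of the UMIs of Spp1, so few cells can make its difference. Cells with at least 20 UMIs of the cell-cycle list per 10000 made up 40.4% (37.4% to 43.4%) of members labelled f/f and 31.4% (27.8% to 35.2%) of those labelled f/w. This limit cut a range and not a type, since 84 and 63 members lay between 15 and 25. Thinned to 5000 UMIs a cell, which left out 28 and 13 members, 36.9% and 25.2% of the members held a UMI of the proliferation gene Mki67.

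At the same depth, 55.8% and 62.1% of members held Cxcl14 (69.2% and 75.6% before thinning, at the median depths given above), against 1.43% and 2.17% of the cells of the muscle program, which should lack it and which had medians of 13901 and 16022 UMIs before thinning. Nkd1 was found in 28.8% and 29.2% of members against 3.08% and 3.26%, and Lef1 in 20.1% and 17.0% against 2.80% and 4.35%. Col7a1 was found in 23.1% and 17.5% of members, against 0.358% of the muscle-program cells labelled f/f and 0 of 92 labelled f/w (Clopper-Pearson interval up to 3.93%). These shares stood above those of the muscle-program cells in both libraries. Those cells lay outside the fibroblast gate, so they were partly chosen for low fibroblast RNA. The level of free RNA was not measured.

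Between the libraries, most genes of the members differed little. Of 8374 genes with at least 200 UMIs, 43 (0.513%) were at least 2-fold lower in the library labelled f/w and 96 (1.15%) at least 2-fold higher, with a median log2 ratio of -0.06 and 59.9% of genes below 0. Intervals of counting error lay below 0 for 2461 genes and above 0 for 1487. Counting error leaves out the spread between embryos, and the source of these counts was not tested. A difference between 2 libraries may come from genotype, from the embryos or from the handling of each sample, which cannot be told apart here.

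The largest ratios belonged to genes of other cell types. Lowest in the library labelled f/w were the muscle genes Myog (44.8 and 1.29 CPM, log2 -5.12, -6.04 to -4.33), Actc1 (118 and 4.16 CPM, -4.82) and Ttn (33.0 and 1.98 CPM, -4.06), along with Car3 of fat and muscle (140 and 4.07 CPM, -5.11). Highest were the mast cell genes Tpsb2 (1 and 419 UMIs, log2 9.07, 6.58 to 14.4), Cma1 (1.78 and 153 CPM, 6.42) and Cpa3 (2.17 and 89.3 CPM, 5.36), the neuropeptide gene Cartpt (0.620 and 52.7 CPM, 6.41) and the lymphatic endothelial genes Ccl21a (22.1 and 203 CPM, 3.20) and Lyve1 (2.87 and 18.2 CPM, 2.67). Of the UMIs in the library labelled f/w, the 5 cells with the most held 87.8% for Tpsb2, 77.6% for Cma1 and 97.9% for Cartpt. Few cells therefore held most of these UMIs, although Cma1 was found in 19.8% of the members labelled f/w and in 1.99% of those labelled f/f. Actc1 was found in 32.3% of the members labelled f/f with 32.2% of its UMIs in the top 5 cells, and Ccl21a was found in 20.5% of those labelled f/w. The sizes of these ratios changed with the setting: with the rule applied to cells thinned to 5000 UMIs, Car3 was at -0.53 and Cartpt at 1.25. At their smallest over the other settings, Tpsb2 was at 4.63, Cma1 at 3.40, Cpa3 at 2.42, Ccl21a at 2.04 and Lyve1 at 0.93. Myog was at -3.23, Actc1 at -4.17 and Ttn at -2.72 at their smallest, and none of these genes changed direction.

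The same genes differed in the same direction in all other kept cells, where Myog was at 146 and 14.4 CPM, Actc1 at 448 and 39.3 CPM, Tpsb2 at 10.3 and 187 CPM and Cma1 at 41.8 and 672 CPM. Over the whole lists, all 7 muscle markers with at least 200 UMIs in the members were at least 2-fold lower and all 5 such mast cell markers at least 2-fold higher in the library labelled f/w. The muscle list summed to 333 and 37.8 CPM in members, with Actc1 its most abundant gene in the library labelled f/f. The mast cell list summed to 16.5 and 352 CPM with Cma1 most abundant, and Mcpt4 was at 0 UMIs in the library labelled f/f and at 22 in the library labelled f/w. The part of RNA from such cells in the differences below was not tested, and values in the core members, with less of it in most lists, are given for the main genes and lists.

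Among core members, 12 of 6479 genes (0.185%) were at least 2-fold lower in the library labelled f/w and 25 (0.386%) higher. Genes of this comparison were named after their values were seen. Igfbp2, a secreted binding protein of insulin-like growth factors (chr1:72824503-72852474, plus strand), was the highest, at 73.0 CPM in the library labelled f/f and 317 CPM in the library labelled f/w (log2 2.12, 1.98 to 2.26). In edge members it was at 89.1 and 241 CPM, in fascia-type cells at 83.4 and 322 CPM, in tendon-type cells at 70.2 and 197 CPM and in other fibroblasts at 140 and 243 CPM, while cells outside the gate had 72.2 and 69.6 CPM. Its difference was thus seen in each kind of fibroblast and not outside the gate. Hmox1, the heme-degrading oxygenase, was at 24.0 and 103 CPM (2.10), the chemokine Ccl2 at 18.6 and 66.0 CPM (1.83) and the metallothionein Mt2 at 43.5 and 116 CPM (1.41). Acta2, the smooth muscle actin of contractile fibroblasts, was at 56.1 and 163 CPM (1.54), but in edge members it was at 159 and 130 CPM. Lowest in the core was again the muscle gene Actc1, at 46.4 and 2.12 CPM (-4.45), and the bone gene Ibsp was at 23.2 and 10.8 CPM (-1.11). Also on the low side were Pappa2, a protease that cleaves binding proteins of insulin-like growth factors, at 103 and 37.9 CPM (-1.44), and the nerve growth factor receptor Ngfr at 32.7 and 15.2 CPM (-1.11).

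Cell-cycle genes were lower in the library labelled f/w. All 30 genes of the list were below 0, with a median log2 ratio of -0.63 beside -0.06 over all genes, and 2 of them, Plk1 and Bub1b, were at least 2-fold lower. Mki67 was at 213 CPM (205 to 221) and 115 CPM (108 to 121), and Top2a, which untangles DNA in dividing cells, at 420 and 236 CPM. Among core members 26 of 28 genes were below 0 and the median was -0.38, and Mki67 was at 234 and 144 CPM. In the members under the limit of 20 cell-cycle UMIs per 10000 the median was -0.04. Those members were chosen by low counts of the same list, so this median is partly set by the choice. The other kept cells had 142 and 80.7 CPM of Mki67, so the difference was not limited to the members. The cyclin-dependent kinase inhibitor Cdkn1a was at 203 and 249 CPM (log2 0.29), and Cdkn1c, another inhibitor, at 2188 and 1866 CPM (-0.23).

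Immediate-early genes were higher in the library labelled f/w. Of 18 genes in the dissociation and stress list, 16 were above 0, and none reached 2-fold. The median log2 ratio was 0.42 (0.48 in the core), beside -0.06 over all genes, of which 59.9% were below 0. Jun was at 2769 and 4446 CPM (0.68), Fos at 2152 and 3201 CPM (0.57) and Atf3 at 801 and 1244 CPM (0.64), while the heat-shock gene Hspa1a was at 208 and 210 CPM (0.01). The list also differed in all other kept cells, with a log2 ratio of its sum of 0.31. Handling and biology cannot be told apart for these genes.

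**Figure D4:**
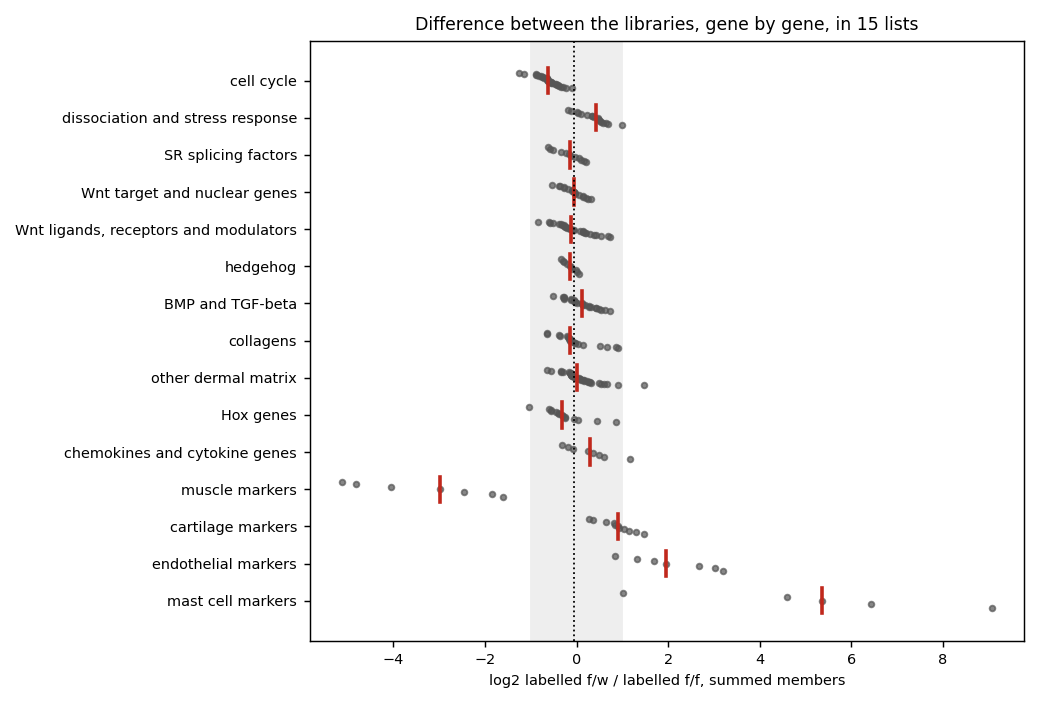
Log2 ratio of labelled f/w over labelled f/f in the summed members for each gene with at least 200 UMIs of 15 lists (points) and the list median (red bar), with the median over all genes (-0.06) dotted and the range within 2-fold shaded. Cell-cycle genes lie left of the dotted line, most stress genes right of it, Wnt and hedgehog genes around it, and the muscle and mast cell markers lie beyond 2-fold on opposite sides.

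The Wnt genes that marked the members differed little between the libraries. In both Wnt lists none of the 29 and 18 genes with at least 200 UMIs was past 2-fold, and the medians were -0.12 and -0.05. In the core the medians were -0.13 for both lists, and Sfrp2 reached 1.01. Nkd1 was at 70.9 CPM (66.4 to 75.6) and 67.9 CPM (62.9 to 73.2), a log2 ratio of -0.06 (-0.21 to 0.08), and Nkd2 at 20.7 and 22.8 CPM (0.14, -0.12 to 0.40). The genes that the rule required were lower in the library labelled f/w, with Twist2 at -0.39, Crabp1 at -0.47, Apcdd1 at -0.59 and Col3a1 at -0.37. The rule selected on these genes at fixed UMIs, in libraries whose members differed in depth, so these ratios only describe what was selected. Over the other settings Twist2 lay between -0.49 and -0.13. Lef1 was at -0.28 (-0.47 to -0.09) and Rspo1 at -0.59 (-0.77 to -0.40). The Wnt antagonist Dkk1, with 169 and 74 UMIs, was at -0.84 (-1.25 to -0.43). On the other side, Cxcl14 was at 0.50 (0.43 to 0.56), Sfrp2 at 0.73 (0.60 to 0.86) and the Wnt carrier Wls at 0.39 (0.29 to 0.48). In the core, Cxcl14 was at 0.53 and Rspo1 at -0.48. No common direction was seen among the Wnt genes.

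Most Hox genes were lower in the library labelled f/w. Of 15 Hox genes with at least 200 UMIs, 12 were below 0, beside 59.9% of all genes, with a median of -0.32 beside -0.06 (-0.53 over 11 genes in the core). Their sum had a log2 ratio of -0.23 (-0.29 to -0.17) in the members but of 0.16 (0.14 to 0.18) in all other kept cells. The limb and body wall position list was divided, with 4 genes below 0 and 3 above and a median of -0.12. Hoxc4 was at 25.6 and 12.5 CPM (-1.04, -1.34 to -0.74), Hoxc8 at 71.9 and 49.1 CPM (-0.55) and Hoxd8 at 21.8 and 14.8 CPM (-0.56), while Hoxb9 was at 16.3 and 22.3 CPM (0.46). Tbx15 was at -0.67 and En1 at -0.12 (-0.29 to 0.05). Hox genes mark the level along the body axis, and whether the pieces of the embryos were sampled alike in both libraries was not tested.

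Matrix and growth factor genes moved in both directions. Of 20 collagens, 14 were below 0 with a median of -0.15, and none was past 2-fold (11 of 18 and a median of -0.04 in the core), near the 59.9% and -0.06 over all genes, with Col7a1 at -0.66 (-0.84 to -0.47), Col6a3 at -0.39 and Col12a1 at 0.51. Col11a1, a fibrillar collagen shared with cartilage and tendon, was at 272 and 511 CPM (0.91, core 0.61), beside 11 of 11 cartilage markers above 0 with a median of 0.91. Postn, a matrix protein of periosteum and dermis, was at 253 and 161 CPM (-0.65, core -0.72). The ligand Fgf10 was at 14.1 and 7.14 CPM (-0.98, -1.40 to -0.58, core -1.24), and Spry4, an inhibitor induced by FGF signalling, at 33.7 and 20.0 CPM (-0.75, core -0.82). Foxd1, a forkhead factor of mesenchyme, was at 26.8 and 65.1 CPM in the members (1.28), at 24.0 and 40.6 CPM in the core (0.76) and at 44.6 and 99.2 CPM in the other fibroblasts, so it was lower in members than in other fibroblasts of either library. The study gave the name of dermal fibroblasts to a subcluster enriched for Foxd1, a gene that the rule here did not use. Whether those cells overlap with the members was not tested.

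Of the SR splicing factors, the family of Srsf2, 8 of 12 genes with at least 200 UMIs were below 0 with a median of -0.14 and none past 2-fold (-0.08 in the core, also 8 of 12), which is near the 59.9% and -0.06 over all genes. Next to Srsf2 at -0.58 (core -0.57), Srsf4 was at 56.6 and 36.6 CPM (-0.63, -0.81 to -0.45) and Srsf1 at 122 and 85.2 CPM (-0.52, -0.65 to -0.40). Tra2b was at 513 and 594 CPM (0.21, 0.16 to 0.26) and Srsf10 at 193 and 217 CPM (0.17, 0.08 to 0.25). The ratios of Srsf1 and Srsf4 were thus within the counting error of that of Srsf2.

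**Figure D5:**
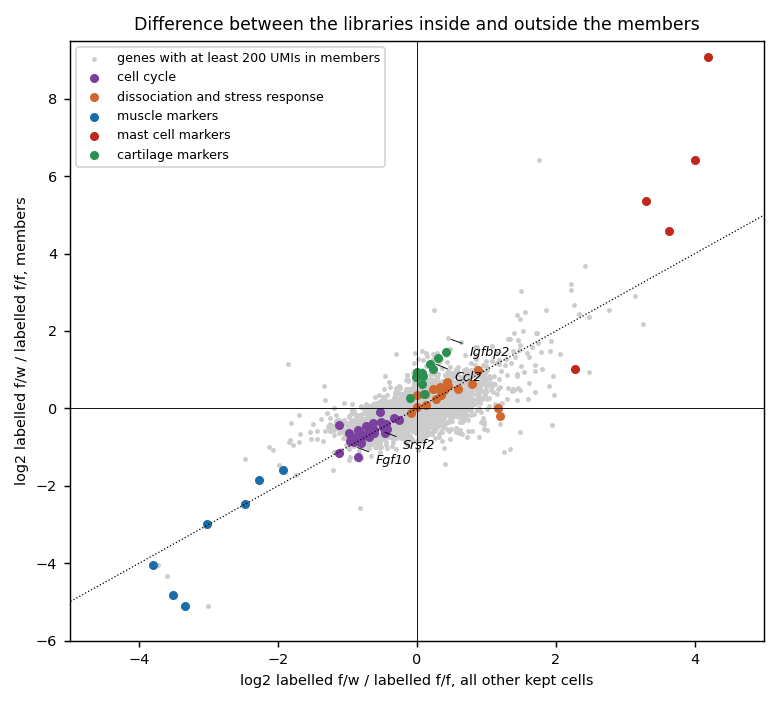
Log2 ratio of labelled f/w over labelled f/f in the members (vertical) and in all other kept cells (horizontal) for each gene with at least 200 UMIs in the members, with equal ratios on the dotted line. Cell-cycle, muscle and mast cell markers lie on the same side of 0 in both, cartilage markers lie above the line, and Igfbp2 (1.81 in members, 0.44 in other kept cells) stands above it too.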

How the data were processed

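Cells had been sequenced as 1 library per genotype with 10x Genomics 3′ v3.1 chemistry. Cell Ranger was used by the authors to assign reads to cells and to mm10, to count UMIs per gene and to join the libraries at a common read depth. The matrix header gives version 5.0.0, whereas the submitters' processing notes list 3.1.0. The deposited values are raw UMI counts of 32285 genes in 27766 barcodes. Barcode suffixes were paired with libraries by the number of cells in the run summaries (15268 and 12498).

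The members and gene lists were chosen with earlier results of these data known. UMIs were summed per library and group of cells and scaled to the total of those cells (CPM). Ratios have exact conditional binomial intervals, sums exact Poisson and shares Clopper-Pearson intervals, all at 95% and for counting error only. Among genes with at least 200 UMIs in the members, the 12 highest and 12 lowest ratios could be named, together with genes of the lists. Genes of the core comparison were named after their values were seen. Neighbours came from 30 principal components of 2000 variable genes without the rule's and mitochondrial genes. Muscle-program cells had UMIs in at least 2 of Pax7, Myf5, Myod1 and Myog and lay outside the fibroblast gate. The ratio and its interval were checked on simulated data. Python 3.11.15, NumPy 2.4.6, SciPy 1.17.1, pandas 2.3.3 and scikit-learn 1.9.0 were used. Alternatives changed scaling, thresholds, thinning (3000 and 8000 UMIs), the minimum of UMIs and the cells counted. Gene coordinates are from GENCODE vM21 (GRCm38, the assembly of mm10), and promoter sequences from RefSeq. A few genes that met these rules are not reported here.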

Additional observations from a re-analysis of the deposited data

Results flagged for a closer look

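Among the genes in the lists with at least 200 UMIs in the members, 3 were flagged for log2 ratios between the libraries of opposite sign in the members and in all other kept cells. Their ratios were at least 0.5 in size in both groups of cells, and the difference was not tested for any of them. Col7a1 also differed in sign, at -0.66 in members and 0.32 in other kept cells, but the second ratio was below 0.5. Prdm1, a transcriptional repressor found in the upper dermis and in other lineages, was at 12.5 and 8.23 CPM in members (-0.61) and at 2.64 and 7.37 CPM in other kept cells (1.48). Fabp4, a fatty acid binding protein of fat and capillary cells, was at 66.6 and 30.5 CPM in members (-1.13) and at 47.0 and 112 CPM in other kept cells (1.25), and in core members it was at 2.51 and 8.09 CPM (1.69). Acta2 was at 98.6 and 147 CPM in members (0.58), with 1.54 in core members, and at 163 and 64.3 CPM in other kept cells (-1.34). In edge members Acta2 was at 159 and 130 CPM.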

How the results depend on the processing

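With 1 library per genotype the precision is limited by the number of cells and UMIs, and no setting adds the spread between embryos. No paired analysis was possible because each genotype had 1 library. The log2 ratio of the member shares, -0.43 over all kept cells, turned to 0.069 over the fibroblasts and was -0.71 without any non-member, in or outside the fibroblast gate, that held UMIs of at least 2 of Pax7, Myf5, Myod1 and Myog (chosen after seeing the data). The 43 genes at least 2-fold lower in the library labelled f/w became 73 with members thinned to 5000 UMIs, 24 with the rule's thresholds per 10000 UMIs, 99 with the rule applied to thinned cells, 154 for genes with at least 50 UMIs and 2362 without a minimum. After seeing the data, they were also counted under the cycling limit (19) and in core members (12). The 96 genes at least 2-fold higher became 58 with thresholds per 10000 UMIs, 25 in core members, 318 with at least 50 UMIs and 2972 without a minimum. Srsf2 was at -0.48 under the cycling limit and between -0.60 and -0.48 over all settings. Des turned from -1.85 to 0.044 with the rule on thinned cells, and Fabp7 from 2.55 to -0.97 with thresholds per 10000 UMIs and to -0.83 with the rule on thinned cells. Against the other fibroblasts, 179 genes in place of 61 were at least 2-fold lower with thresholds per 10000 UMIs. With a limit of 3/4, 90.1% and 87.6% of members were dominated by Crabp1. Thinned to 3000 UMIs, 29.0% and 20.1% of members held Mki67 and 12.7% and 11.8% Lef1, and at 8000 UMIs 49.2% and 32.2%, and 24.3% and 22.0%. The cause of these changes was not tested, apart from the fewer or more genes and cells that a setting counts.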

Other observations

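Genes of retinoic acid turnover differed in direction. Cyp26b1, the enzyme that breaks retinoic acid down, was at 35.2 and 47.3 CPM in the members labelled f/f and f/w and at 15.7 and 20.7 CPM in the other fibroblasts. Aldh1a2, which makes retinoic acid, was lower in members, at 3.33 and 4.26 CPM against 16.3 and 17.8 CPM. Kitl, the ligand for the receptor of melanoblasts and mast cells, was at 78.1 and 62.7 CPM against 30.2 and 33.2 CPM. The p53 target Pmaip1 was at 43.2 and 33.5 CPM in the members against 6.41 and 5.06 CPM, whereas the cell-cycle inhibitor Cdkn1c was at 2188 and 1866 CPM against 4105 and 2774 CPM. These values describe cells chosen by their RNA and were not tested.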
